A study of Homo sapiens with 12 samples.

Results

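RAB GTPases are small membrane switches, and the 60 genes described here are those of 20036 genes in the expression table whose symbol is RAB with a number and an optional letter. RAB29, RAB32 and RAB38 were left out by that rule, which used no measured value. Total RNA came from MV-4-11, an acute myeloid leukemia line with a bone marrow origin and a wild-type genotype in its labels. The 12 libraries fell into 4 groups of 3: DMSO, the vehicle; ELI, for eliglustat, which inhibits glucosylceramide synthase (UGCG); ABT, for venetoclax, which inhibits BCL2; and Comb, for both drugs. Cells of this single line were treated for 48 h, the title of the series names UGCG and sensitivity to venetoclax, and no source used here gives a dose. Whether the libraries of a group are separate cultures is not in the labels, so the p-values reflect only how libraries spread, which may be technical.

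A RAB protein carries a lipid tail, added by a geranylgeranyl transferase, that holds it on a membrane. Exchange factors load it with GTP, and in that form it recruits effectors that move, tether or fuse vesicles, while GTPase-activating proteins return it to the GDP form. GDI proteins then draw it back into the cytosol. Each organelle carries its own RAB set, so RAB names serve as labels for the Golgi, early, recycling and late endosomes and secretory granules. In myeloid cells these steps serve granule release, phagosome maturation and the return of receptors to the surface. Glucosylceramide is made at the Golgi and is carried onward by membrane traffic.

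Reads recovered from the values numbered 17259889 to 21082288 per library. The unit is FPKM, which divides the reads of a gene by its length and by the total of its library. Markers fit a myelomonocytic line in part. CD33 lay between 22.6 and 27.0 FPKM, FLT3 between 189 and 372 and CD4 between 95.3 and 137, whereas ITGAM reached 1.77 and MPO 1.57. Among the markers of other lineages that are given here, CD2, HBB, PF4 and COL1A2 were listed at 0 in every library. CD79A reached 1.81 FPKM, KRT18 5.00 and ITGA2B 2.03. KRT18 averaged 4.41 FPKM with DMSO and 4.25 with ABT but 1.90 with ELI and 1.86 with both drugs, and CD79A 1.44, 1.18, 0.721 and 0.430 in the same order. The part of such genes in the RAB results was not tested.

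Of the 60 genes, 44 had 1 FPKM or more in 3 libraries or more and entered the test of 9959 genes. A gene that passed this filter only through the groups where it was high was more likely to differ, so the 44 are not all members. RAB17 is such a gene: it reached 1 FPKM in DMSO and ABT libraries alone, so its values are given as a description, although the counts over the 44 include it. RAB4B reached 1 FPKM in no ABT library, RAB15 and RAB23 in no Comb library, and RAB6B in no ELI or Comb library. RAB6B thus also entered through DMSO and ABT alone, and it passed the test described below in no comparison. RAB19, RAB6D and RAB9B were listed at 0 throughout. The other 13 untested genes had highest values of 0.00867 FPKM (RAB3B), 0.0169 (RAB6C), 0.0264 (RAB3C), 0.0345 (RAB13), 0.0368 (RAB36), 0.0908 (RAB39B), 0.129 (RAB42), 0.172 (RAB41), 0.186 (RAB30), 0.239 (RAB25), 0.284 (RAB40A), 0.356 (RAB27B) and 0.581 (RAB43). Several of these serve neurons or epithelia, among them RAB3B, RAB3C and RAB25. RAB6C and RAB6D are near copies of RAB6A, and RAB43 shares exons with a readthrough gene, so their values are uncertain.

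Levels per kilobase in DMSO were led by RAB7A, the late endosome RAB, at 59.0 ± 2.66 FPKM (SD, n = 3). RAB10, of exocytosis and basolateral sorting, followed at 53.4 ± 8.82 FPKM, within its own spread of RAB7A. RAB14, of Golgi to endosome transport, stood at 49.1 ± 2.55 FPKM. RAB1B, RAB11B, RAB31 and RAB1A came next at 35.0 ± 6.46, 33.6 ± 3.25, 33.4 ± 2.27 and 32.2 ± 6.06 FPKM, an order that their spreads do not separate. In Comb the order differed: RAB10 led at 84.6 ± 3.15 FPKM, and RAB31 at 61.7 ± 1.35 came level with RAB7A at 61.2 ± 1.60. The sum over the 60 genes was 646 to 667 FPKM in DMSO, 635 to 650 in ABT, 712 to 722 in ELI and 740 to 747 in Comb. ELI and Comb thus lay above DMSO and ABT in all of their libraries, and DMSO and ABT overlapped.

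With both drugs, 6 of 7 early endosome RAB genes rose and none fell, where 25.7% of all tested genes rose. Of 8 recycling RAB genes 4 fell and 2 rose, and of 9 secretory RAB genes 3 fell and 1 rose, where 25.8% of all tested genes fell, so that the secretory count lies near the share of all genes. Differences below are on the log2(FPKM + 1) scale, which understates the change of low genes, and a gene passed when its limma p, adjusted by Benjamini-Hochberg over the 9959 genes, was under 0.05. In Comb against DMSO 17 of the 44 rose and 9 fell, where 51.5% of all tested genes passed (25.7% higher and 25.8% lower). In ELI against DMSO 13 rose and 9 fell, where 36.1% of all genes passed (16.4% higher and 19.8% lower). A fit of the 9 libraries without Comb was blocked on replicate number, a pairing that was assumed and not shown. That fit also passed RAB1A, RAB5A, RAB7A, RAB8A, RAB9A, RAB11B, RAB27A, RAB28 and RAB35 in ELI, where 53.0% of all genes passed. The share of RAB genes that passed was 59.1% in Comb and 50% in ELI. The median RAB difference was 0.11 in Comb and 0.14 in ELI against 0.02 and 0.01 for all genes. These comparisons share the DMSO libraries. In bulk RNA, fewer cells of one kind and less RNA per cell cannot be told apart.

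**Figure D1:**
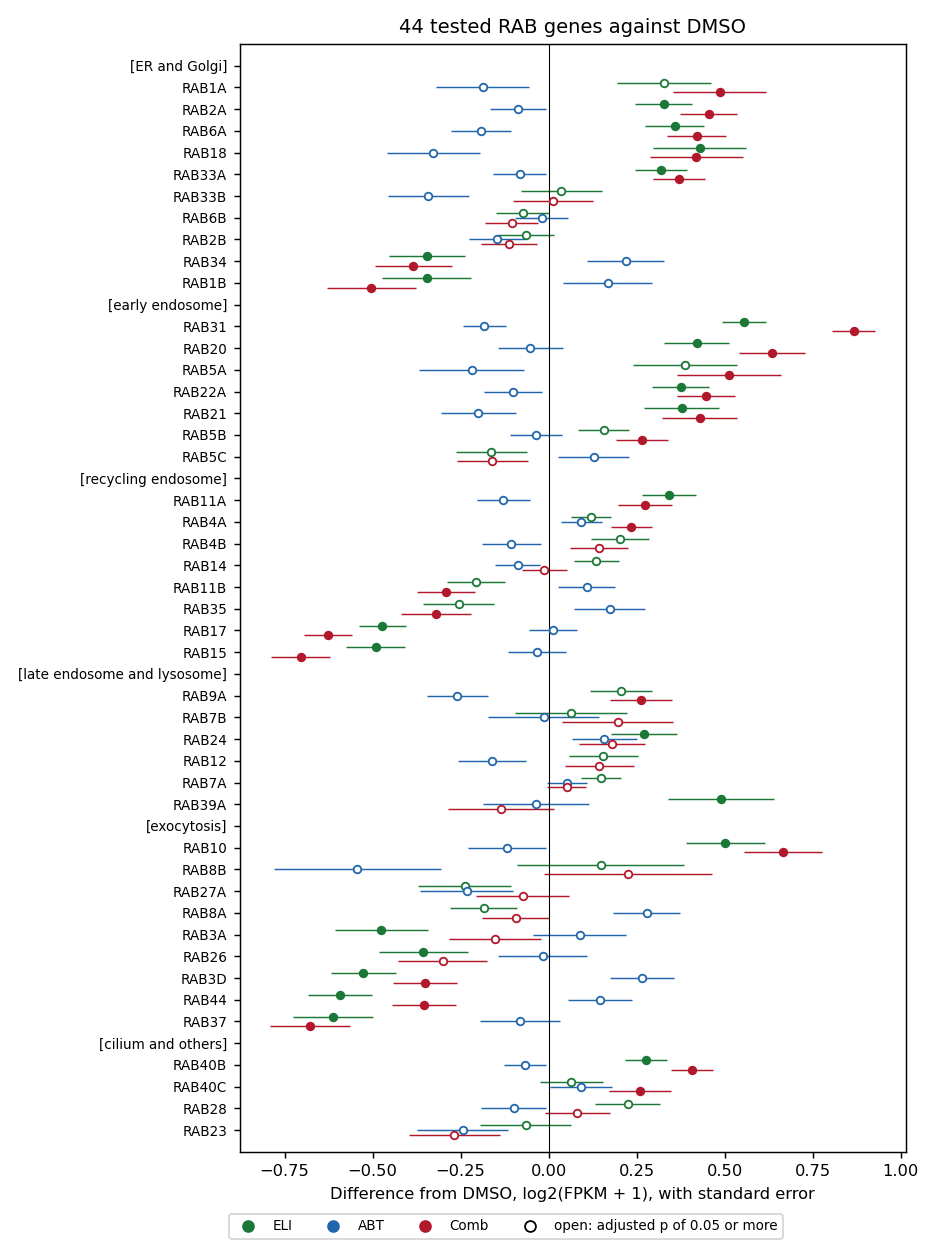
Difference of each of the 44 tested RAB genes from DMSO on the log2(FPKM + 1) scale (x axis), grouped by compartment, with bars for the standard error from limma and filled points for an adjusted p under 0.05. The 6 early endosome genes that passed have filled Comb points to the right of 0, RAB31 farthest at 0.87, and all ABT points are open.

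GC content moved with these differences. Over the 44 RAB genes, Spearman's rho between a gene's GC content and its difference was -0.48 in Comb against DMSO, -0.50 in ELI against DMSO and 0.77 in ABT against DMSO. The same values over 9936 genes were -0.38, -0.48 and 0.66, and genes are not independent replicates. RAB genes that rose in Comb had a median GC content of 41.0% in their longest coding transcript, and those that fell 57.7%. Within DMSO, ELI and ABT the first library deviated from its group along GC content (rho -0.79, -0.70 and -0.70 over all genes), while the Comb libraries lay between -0.29 and 0.26. With a trend on GC content and length removed from each library, 14 of the 44 RAB genes were higher and 11 lower in Comb than in DMSO. Of all tested genes 60.4% then passed. Of the original RAB calls 12 and 8 held in the same direction. In ELI the counts were then 11 and 11, where 47.2% of all tested genes passed, and 8 and 8 of the original calls held. RAB1A (0.12) and RAB11B (-0.07), which passed in ELI with the replicate block, did not pass with the trend removed. The same was true of RAB7A, RAB8A and RAB9A, and the fall of RAB35 ended too, while RAB27A stayed lower. Where that removal ends a call made without the block, its value stands beside the gene.

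**Figure D2:**
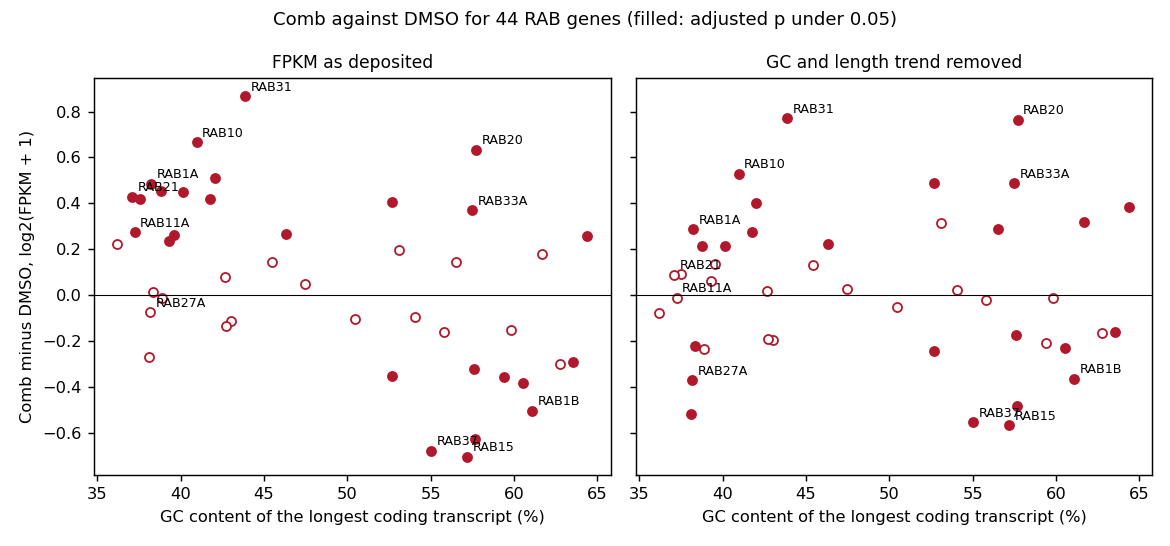
Comb minus DMSO for the 44 RAB genes on the log2(FPKM + 1) scale (y axis) against the GC content of the longest coding transcript in percent (x axis), as deposited on the left and with the GC and length trend removed on the right, where filled points passed limma at 0.05. RAB31, RAB20 and RAB33A stay high on the right, RAB21 and RAB11A move to near 0, and RAB27A becomes a filled point below 0.

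Start regions of 4 genes are shown because these genes carry the opposite directions of the results: RAB31, RAB10 and RAB5A rose in Comb, and RAB1B fell. Each is the 300-base window of RefSeq, on build GRCh38.p14, from 250 bases before to 50 after the start, in the direction of transcription. They lie at chr18:9708051-9708350 on the plus strand for RAB31, chr2:26033834-26034133 plus for RAB10, chr3:19946847-19947146 plus for RAB5A and chr11:66268389-66268688 plus for RAB1B. Capitals mark the letters CACGTG (an E-box, which reads the same on both strands) and GGGCGG or its reverse CCGCCC (a GC box). No source used here names the build behind the deposited values.
RAB31: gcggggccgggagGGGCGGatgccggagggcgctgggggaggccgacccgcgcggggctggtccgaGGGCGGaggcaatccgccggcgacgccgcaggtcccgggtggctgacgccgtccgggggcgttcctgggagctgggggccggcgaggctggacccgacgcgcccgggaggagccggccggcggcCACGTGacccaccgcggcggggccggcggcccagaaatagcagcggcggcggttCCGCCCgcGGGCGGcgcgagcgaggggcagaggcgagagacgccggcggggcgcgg
RAB10: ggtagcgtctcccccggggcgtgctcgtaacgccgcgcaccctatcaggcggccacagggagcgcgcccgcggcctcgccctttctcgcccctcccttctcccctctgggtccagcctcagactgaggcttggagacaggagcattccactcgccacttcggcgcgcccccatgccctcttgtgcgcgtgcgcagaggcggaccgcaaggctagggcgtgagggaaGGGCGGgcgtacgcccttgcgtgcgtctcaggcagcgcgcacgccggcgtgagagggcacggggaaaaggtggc
RAB5A: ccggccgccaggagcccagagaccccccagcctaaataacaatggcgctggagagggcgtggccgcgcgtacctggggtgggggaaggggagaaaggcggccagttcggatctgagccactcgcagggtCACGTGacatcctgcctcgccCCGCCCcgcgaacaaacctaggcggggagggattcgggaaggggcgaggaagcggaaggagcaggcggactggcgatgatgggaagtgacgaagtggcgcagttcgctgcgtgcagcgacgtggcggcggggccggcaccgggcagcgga
RAB1B: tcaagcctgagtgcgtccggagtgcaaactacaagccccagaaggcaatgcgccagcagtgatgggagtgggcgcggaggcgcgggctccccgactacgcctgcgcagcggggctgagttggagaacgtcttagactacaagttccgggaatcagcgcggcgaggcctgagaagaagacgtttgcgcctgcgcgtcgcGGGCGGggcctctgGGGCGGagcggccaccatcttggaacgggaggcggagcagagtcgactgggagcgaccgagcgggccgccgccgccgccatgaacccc
The RAB31 window held 1 E-box and 4 GC boxes at 82.7% GC, and that of RAB5A 1 of each at 69.3%. RAB10 had 1 GC box at 71.3% and RAB1B 2 at 68.3%. RefSeq windows were found for 48 of the 60 genes, 69 windows in all. CACGTG stood in 5 of them (RAB4A, RAB5A, RAB21, RAB24 and RAB31), or 7.25%, against 7.26% of 35116 windows of all genes. GGGCGG on either strand stood in 51, or 73.9%, against 45.0%. These matches describe letters and say nothing of binding.

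Early endosome RABs included the member with the largest difference from DMSO, RAB31, and in Comb 6 of 7 rose and none fell, with a median difference of 0.45. RAB31, also called RAB22B, serves transport between the Golgi and endosomes and the sorting of receptors. RAB31 measured 36.0, 31.7 and 32.6 FPKM in the DMSO libraries, 50.1, 48.6 and 49.9 in ELI, 30.7, 29.03 and 28.3 in ABT, and 63.2, 61.4 and 60.5 in Comb. The Comb libraries were the highest, ELI came next, and neither overlapped any other group. Its mean was 1.84 times DMSO in Comb and 1.48 times in ELI. The differences were 0.87 (SE 0.06, limma adjusted p = 4.09e-07) and 0.55 (SE 0.06, limma adjusted p = 5.84e-05). Both held without any single library and with the GC trend removed, at 0.77 and 0.44.

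RAB20, found on early phagosomes and endosomes, measured 10.1, 13.6 and 11.2 FPKM in DMSO, 15.0, 15.8 and 16.9 in ELI, 10.9, 10.6 and 12 in ABT, and 18.2, 18.6 and 18.8 in Comb. All ELI and Comb libraries lay above those of DMSO and ABT. RAB20 rose by 0.63 in Comb (SE 0.09, limma adjusted p = 0.000163) and by 0.42 in ELI (SE 0.09, limma adjusted p = 0.00482). Its GC content of 57.7% lies among those of the RAB genes that fell, and with the trend removed its differences were larger, at 0.76 and 0.56.

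RAB5A drives fusion of early endosomes. RAB5A measured 13.4, 8.68 and 11.1 FPKM in DMSO, 16.4, 13.0 and 14.5 in ELI, 11.1, 9.09 and 7.78 in ABT, and 15.5, 17.3 and 15.3 in Comb. The Comb libraries lay above all of DMSO, and the ELI and DMSO libraries overlapped. RAB5A rose by 0.51 in Comb (SE 0.15, limma adjusted p = 0.0132), a call lost without DMSO replicate 2 or Comb replicate 2, where the adjusted p reached 0.053. In ELI the difference was 0.39 and did not pass (limma adjusted p = 0.06), but it passed with the replicate number as a block (limma adjusted p = 0.0044).

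RAB21, of integrin and early endosome traffic, measured 6.45, 4.56 and 5.01 FPKM in DMSO, 7.69, 6.89 and 6.97 in ELI, 5.09, 4.45 and 3.94 in ABT, and 7.38, 7.63 and 7.40 in Comb. ELI and Comb lay above DMSO and ABT without overlap. RAB21 rose by 0.43 in Comb (limma adjusted p = 0.00554) and by 0.38 in ELI (limma adjusted p = 0.0166), the latter lost without DMSO replicate 2 or 3 or ELI replicate 1 (up to 0.069). RAB21 has a GC content of 37.1%, and with the trend removed the differences were 0.09 and 0.07 and did not pass. RAB22A, an early endosome sorting RAB, rose by 0.45 in Comb and 0.37 in ELI (limma adjusted p = 0.000787 and 0.00444), and with the trend removed these were 0.21, which passed, and 0.15, which did not. RAB5B rose by 0.27 in Comb (limma adjusted p = 0.00992), and its paralog RAB5C did not pass, at 16.9 FPKM in DMSO and 15.0 in Comb.

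RABs of the endoplasmic reticulum and Golgi split, with 5 of 10 higher and 2 lower in Comb than in DMSO, where 25.7% of all genes were higher and 25.8% lower. RAB1A and RAB1B both act in traffic from the endoplasmic reticulum to the Golgi. RAB1A measured 39.1, 27.7 and 29.8 FPKM in DMSO, 44.4, 35.6 and 41.3 in ELI, 32.7, 25.6 and 25.8 in ABT, and 41.8, 47.4 and 46.1 in Comb. RAB1B measured 27.5, 38.8 and 38.6 FPKM in DMSO, 24.7, 28.9 and 27.5 in ELI, 33.5, 42.1 and 41.8 in ABT, and 23.9, 24.5 and 23.8 in Comb. The paralogs went opposite ways, and in both genes the first DMSO library lay nearest to Comb. In Comb RAB1A rose by 0.49 (SE 0.13, limma adjusted p = 0.00957) and RAB1B fell by 0.50 (SE 0.13, limma adjusted p = 0.00606). With the trend removed these were 0.29 and -0.36 and still passed. In ELI against DMSO RAB1A differed by 0.33 and did not pass (limma adjusted p = 0.072), but it passed with the replicate block (limma adjusted p = 0.00158). Its ELI difference with the trend removed was 0.12 and did not pass (limma adjusted p = 0.053). RAB1B fell by 0.35 in ELI at the edge of the threshold (limma adjusted p = 0.04999, and 0.20 with the trend removed), its libraries overlapped those of DMSO, and the call was lost without any 1 of 10 of the 12 libraries.

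RAB6A, of retrograde Golgi transport, measured 23.0, 19.0 and 20.0 FPKM in DMSO, 27.7, 25.6 and 26.7 in ELI, 20.0, 16.6 and 17.2 in ABT, and 28.2, 28.5 and 27.0 in Comb. Each ELI and Comb library lay above all of DMSO and ABT. RAB6A rose by 0.42 in Comb (SE 0.08, limma adjusted p = 0.0015) and by 0.36 in ELI (SE 0.08, limma adjusted p = 0.00682), and by 0.28 and 0.20 with the trend removed. RAB18, of lipid droplets and the endoplasmic reticulum, measured 8.10, 5.00 and 5.98 FPKM in DMSO, 9.34, 8.46 and 8.51 in ELI, 5.64, 4.54 and 4.23 in ABT, and 8.52, 9.07 and 8.49 in Comb. Here the first DMSO library came close to Comb while the others did not. RAB18 rose by 0.42 in Comb (limma adjusted p = 0.0196) and 0.43 in ELI (limma adjusted p = 0.0256), but fell short with the trend removed, at 0.09 and 0.13. Its Comb call was also lost without DMSO replicate 2, DMSO replicate 3 or Comb replicate 2 (highest limma adjusted p 0.08), and its ELI call without DMSO replicate 2 or 3 or ELI replicate 1 or 3 (highest 0.099).

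RAB2A, which acts between the Golgi and the endoplasmic reticulum and at lysosomes, averaged 26.7 ± 3.05 FPKM in DMSO, 33.6 ± 1.75 in ELI and 36.8 ± 0.329 in Comb. It rose by 0.45 in Comb and 0.33 in ELI (limma adjusted p = 0.00065 and 0.00877), and with the trend removed these were 0.22, which passed, and 0.09, which did not. RAB33A, an RAB of the Golgi and of vesicles, averaged 12.2 ± 0.425 FPKM in DMSO, 15.5 ± 0.956 in ELI and 16.1 ± 0.60 in Comb. It rose by 0.37 and 0.32 in Comb and ELI (limma adjusted p = 0.00151 and 0.00649), and by 0.49 and 0.47 with the trend removed. RAB34, of the Golgi and lysosome positioning, fell by 0.38 in Comb and by 0.35 in ELI (limma adjusted p = 0.0115 and 0.0281), and by 0.23 and 0.21 with the trend removed. The ELI call of RAB34 was lost without DMSO replicate 2 or 3 or ELI replicate 1 or 3, with an adjusted p of up to 0.11.

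Of the 9 secretory RABs 5 fell and 1 rose with ELI, with a median difference of -0.36, where 19.8% of all genes fell and 16.4% rose. In Comb 3 fell and 1 rose, with a median of -0.15, where 25.8% of all genes fell and 25.7% rose. RAB3D, a granule RAB of exocrine and blood cells, measured 13.0, 16.9 and 14.1 FPKM in DMSO, 9.75, 9.80 and 9.92 in ELI, 17.1, 17.2 and 19.0 in ABT, and 11.8, 10.2 and 11.7 in Comb. The 4 groups did not overlap. RAB3D fell by 0.53 in ELI (SE 0.09, limma adjusted p = 0.00116) and by 0.35 in Comb (SE 0.09, limma adjusted p = 0.00736). Its exons overlap genes on both strands, and no source used here says whether counting used the strand. Other members share this limit. Exons of RAB1A (23%), RAB1B (up to 29%) and RAB8A (38%) overlap genes on the opposite strand. Those of RAB5C (29%) and RAB4B (up to 27%) overlap genes on the same strand.

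RAB37, of mast cell and T cell granules, measured 6.87, 9.38 and 7.25 FPKM in DMSO, 4.14, 5.27 and 4.85 in ELI, 6.81, 6.85 and 8.27 in ABT, and 4.56, 4.18 and 4.71 in Comb. ELI and Comb lay below every DMSO and ABT library. RAB37 fell by 0.68 in Comb (SE 0.11, limma adjusted p = 0.000447) and by 0.61 in ELI (SE 0.11, limma adjusted p = 0.00174). RAB44, a large RAB of granulocytes and osteoclasts, measured 8.46, 9.73 and 7.33 FPKM in DMSO, 5.31, 5.25 and 5.26 in ELI, 10.6, 8.89 and 9.01 in ABT, and 6.38, 6.39 and 6.40 in Comb. It too was lower in all ELI and Comb libraries. RAB44 fell by 0.59 in ELI (SE 0.09, limma adjusted p = 0.000509) and by 0.36 in Comb (SE 0.09, limma adjusted p = 0.00665), and the latter ended at -0.21 with the trend removed (limma adjusted p = 0.065).

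RAB3A, of regulated exocytosis, averaged 5.10 ± 1.00 FPKM in DMSO, 3.37 ± 0.443 in ELI and 4.47 ± 0.585 in Comb. It fell by 0.47 in ELI (limma adjusted p = 0.0155), a call lost without DMSO replicate 2 or ELI replicate 1 (up to 0.072), and in Comb it differed by -0.15 and did not pass. RAB26, of secretory granules, fell by 0.36 in ELI (limma adjusted p = 0.0453) with overlapping libraries. That call was lost without any 1 of 8 libraries, with an adjusted p of up to 0.16, and ended at -0.22 with the trend removed. RAB10, which rose, carries GLUT4 vesicles and basolateral cargo to the surface. RAB10 measured 63.6, 48.1 and 48.5 FPKM in DMSO, 80.2, 72.8 and 73.3 in ELI, 56.3, 45.0 and 45.5 in ABT, and 82.8, 88.2 and 82.7 in Comb. All ELI and Comb libraries exceeded all of DMSO and ABT. RAB10 rose by 0.67 in Comb (SE 0.11, limma adjusted p = 0.000429) and by 0.50 in ELI (SE 0.11, limma adjusted p = 0.00491), and by 0.53 and 0.35 with the trend removed.

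RAB27A, which docks lysosome-related granules, measured 10.3, 7.07 and 7.78 FPKM in DMSO, 7.88, 5.92 and 6.93 in ELI, 8.16, 6.31 and 6.38 in ABT, and 7.49, 8.10 and 7.89 in Comb. The groups overlapped, and it passed in none of the 7 comparisons. At 38.2% GC it was lower with the trend removed, by -0.52 in ELI and -0.37 in Comb (limma adjusted p = 8.87e-06 and 8.51e-05), and with the replicate block it was lower in ELI (-0.24, limma adjusted p = 0.014). RAB8B, of surface and autophagic traffic, measured 16.1, 7.15 and 8.85 FPKM in DMSO, 13.4, 9.51 and 11.4 in ELI, 8.62, 6.23 and 5.39 in ABT, and 10.9, 13.4 and 11.8 in Comb. The first DMSO library exceeded all others. RAB8B passed only against ABT, at 0.77 for Comb (SE 0.24, limma adjusted p = 0.0133) and 0.69 for ELI (SE 0.24, limma adjusted p = 0.0244). These ended at 0.14 and 0.08 with the trend removed, the Comb call was lost without ABT replicate 3 (0.056), and the ELI call without ELI replicate 1 or 3 or ABT replicate 2 or 3 (up to 0.095).

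**Figure D3:**
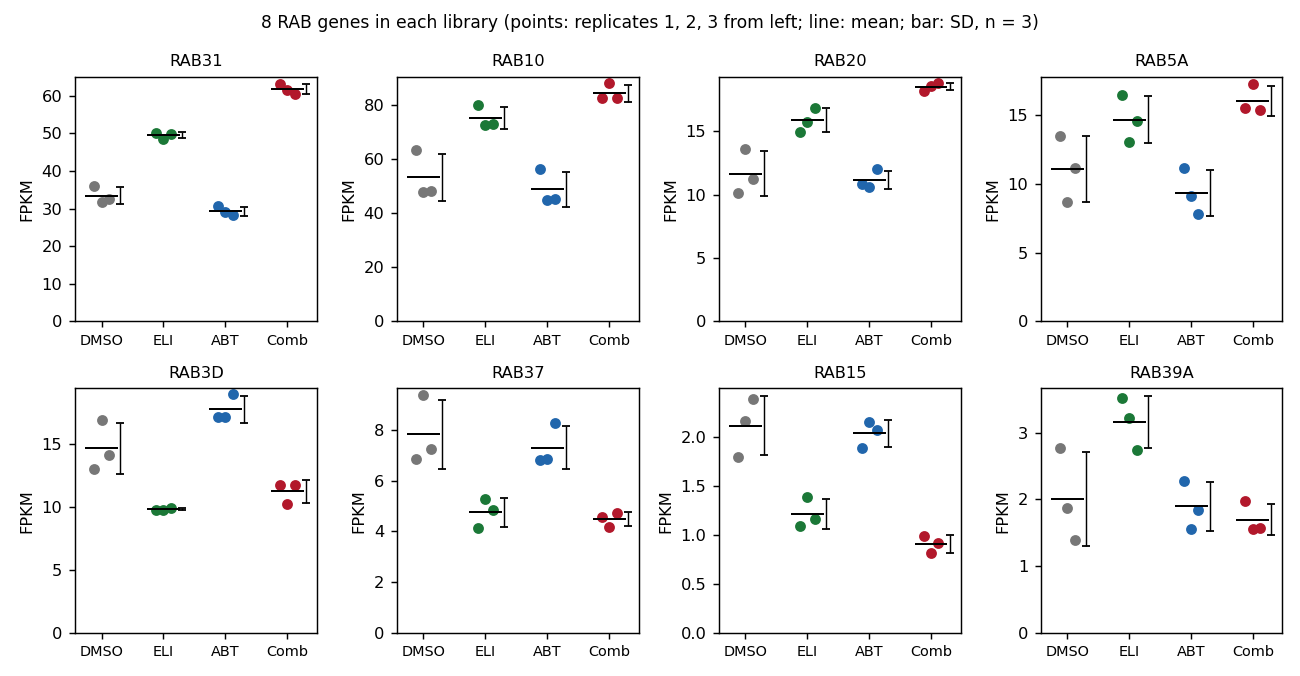
FPKM (y axis, from 0) of 8 RAB genes in each of the 12 libraries, with replicates 1 to 3 from left to right in each group, a line at the mean and a bar for the SD (n = 3). RAB31 rises from means of 33.4 in DMSO to 49.5 in ELI and 61.7 in Comb, RAB3D, RAB37 and RAB15 are lower in ELI and Comb, and RAB39A averages 3.16 in ELI and 1.70 in Comb.

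Of the 8 recycling RABs 4 were lower and 2 higher in Comb, with a median of -0.15, where 25.8% of all genes were lower and 25.7% higher. RAB17 is among the 4. RAB15, which slows endocytic recycling, measured 1.80, 2.17 and 2.39 FPKM in DMSO, 1.09, 1.39 and 1.16 in ELI, 1.89, 2.15 and 2.07 in ABT, and 0.994, 0.815 and 0.917 in Comb. Comb was the lowest group and did not overlap ELI, which lay below DMSO and ABT. RAB15 fell by 0.70 in Comb (SE 0.08, limma adjusted p = 3.03e-05) and by 0.49 in ELI (SE 0.08, limma adjusted p = 0.00102). RAB17, of transcytosis in epithelia, measured 0.986, 1.28 and 1.24 FPKM in DMSO, 0.503, 0.604 and 0.578 in ELI, 1.21, 1.2 and 1.14 in ABT, and 0.358, 0.459 and 0.395 in Comb. It rested on few reads, as low as 33 in a library. Its differences from DMSO were -0.63 in Comb and -0.47 in ELI, given as a description since the filter admitted it through DMSO and ABT.

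RAB35, of fast recycling, fell by 0.32 in Comb (limma adjusted p = 0.0191), a call lost without DMSO replicate 2 or 3 or Comb replicate 2 or 3 (up to 0.084) and at -0.17 with the trend removed, where it passed. RAB11B, of slow recycling, fell by 0.29 (limma adjusted p = 0.0111) and by 0.16 with the trend removed, while its paralog RAB11A rose by 0.27 in Comb and 0.34 in ELI (limma adjusted p = 0.01 and 0.00479). With the trend removed RAB11A differed by -0.01 and 0.07 and passed in neither. RAB4A, of fast recycling, averaged 20.4 ± 0.493 FPKM in DMSO and 24.2 ± 0.420 in Comb. It rose by 0.24 (limma adjusted p = 0.00545), a call that ended at 0.06 with the trend removed. RAB14 averaged 49.1 FPKM in DMSO and 48.6 in Comb, and RAB4B 1.02 and 1.23, and neither passed.

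Of the 6 late endosome and lysosome RABs 1 rose in Comb and 2 in ELI, and none fell, where 25.7% of all genes rose in Comb and 16.4% in ELI. The Comb count does not exceed that share. RAB7A, which drives fusion with lysosomes, measured 56.0, 60.5 and 60.6 FPKM in DMSO, 63.4, 66.8 and 66.5 in ELI, 59.7, 62.0 and 61.8 in ABT, and 62.0, 59.3 and 62.2 in Comb. The ELI libraries were highest and did not overlap DMSO. The ELI difference of 0.15 did not pass (limma adjusted p = 0.057) and passed with the replicate block (limma adjusted p = 0.022), and in Comb the difference was 0.05. With the trend removed the ELI difference of RAB7A did not pass. RAB9A, of transport from late endosomes to the Golgi, rose by 0.26 in Comb (limma adjusted p = 0.0249). That call was lost without DMSO replicate 2 or 3 or Comb replicate 2 or 3 (up to 0.081) and ended at 0.13 with the trend removed.

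RAB39A, of phagosome acidification and autophagy, was the one member that passed as lower in Comb than in ELI. RAB39A measured 2.77, 1.87 and 1.39 FPKM in DMSO, 3.52, 3.23 and 2.74 in ELI, 2.28, 1.56 and 1.84 in ABT, and 1.97, 1.56 and 1.57 in Comb. ELI was highest, overlapping only the first DMSO library. RAB39A rose by 0.49 in ELI against DMSO (SE 0.15, limma adjusted p = 0.0257) and was lower by -0.62 in Comb than in ELI (SE 0.15, limma adjusted p = 0.0209). The first call was lost without DMSO replicate 2 or 3 or ELI replicate 1 or 2 (up to 0.11), and the second without ELI replicate 1 or 2 or Comb replicate 2 or 3 (up to 0.087). RAB24, of autophagy, averaged 0.932 FPKM in DMSO and 1.33 in ELI. It rose by 0.27 (limma adjusted p = 0.0402), a call lost without any 1 of 6 libraries (up to 0.13), and the difference was 0.41 with the trend removed. Exons of RAB24 overlap those of a neighbouring gene on the same strand over 45% of their length, and it rested on 34 to 60 reads in a library. RAB7B and RAB12 passed against DMSO in no group.

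Among the other tested members, RAB40B, an adaptor of a ubiquitin ligase, averaged 1.18 ± 0.0472 FPKM in DMSO, 1.65 ± 0.0839 in ELI and 1.90 ± 0.109 in Comb. It rose by 0.41 in Comb and 0.28 in ELI (limma adjusted p = 0.00016 and 0.00401). RAB40C, of the same kind, rose by 0.26 in Comb (limma adjusted p = 0.0279), a call lost without DMSO replicate 1 or 3 or Comb replicate 2 or 3 (up to 0.099). RAB28 and RAB23, both of cilia, did not pass against DMSO, although RAB28 did in ELI with the replicate block (0.22, limma adjusted p = 0.0114), and RAB23 lies largely opposite another gene's exons. With the trend removed RAB23 was lower by -0.52 in Comb and -0.31 in ELI (limma adjusted p = 0.00028 and 0.014). In all, 38 of the 44 passed in at least 1 comparison, and RAB27A, RAB7A, RAB23, RAB2B, RAB6B and RAB7B passed in none. The matching share of all genes was not computed, and 67.2% of them passed in Comb against ABT alone. The count of 38 therefore does not set RAB genes apart.

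Of 5 paralog pairs, RAB1A and RAB1B, and RAB11A and RAB11B, had opposite calls in Comb against DMSO, the RAB11A call ending with the trend removed. In each of the other pairs at least 1 gene did not pass. The share of RAB1A in the summed FPKM of RAB1A and RAB1B was 58.7, 41.7 and 43.6% in DMSO, 64.3, 55.2 and 60.0% in ELI, 49.4, 37.8 and 38.2% in ABT, and 63.7, 65.9 and 65.9% in Comb. The Comb libraries clustered tightly, and the first DMSO library lay within the ELI range. RAB5A made up 39.5 ± 7.81% of RAB5A and RAB5C in DMSO and 51.7 ± 2.95% in Comb (SD, n = 3). RAB11A made up 40.6 ± 3.76% of the RAB11 pair with DMSO and 36.6 ± 2.44% with ABT, against 50.3 ± 3.0% with ELI and 50.6 ± 0.816% with both. RAB8B made up 42.7 ± 12.5% of the RAB8 pair in DMSO and 48.6 ± 4.50% in Comb, within the spread. In these pairs the gene whose share was higher in Comb has the lower GC content, as in RAB1A at 38.3% and RAB1B at 61.1%, and similar copies can exchange reads in counting.

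**Figure D4:**
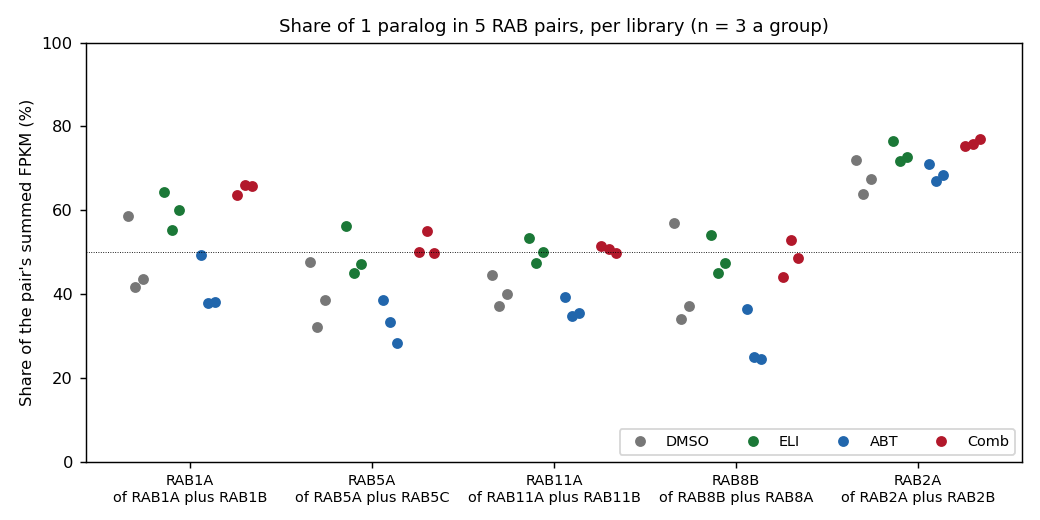
Share of the first-named gene in the summed FPKM of 5 RAB paralog pairs, in percent (y axis, 0 to 100), for each of the 12 libraries, colored by group, with replicates 1 to 3 from left to right. In the RAB1 pair the Comb libraries sit at 63.7 to 65.9% and the ABT libraries at 37.8 to 49.4%, and in every DMSO set the first library is the highest.

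ABT alone gave no call: none of the 44 RAB genes passed against DMSO, where 0.151% of all genes did, and 8 had an unadjusted limma p under 0.05. The median difference was -0.07 against -0.02 for all genes. With the replicate number, an assumed pairing, as a block in the 9 libraries of DMSO, ELI and ABT, 2 rose and 7 fell. Of all genes 23.6% passed with that block. RAB3D (0.26) and RAB8A (0.28), the latter of exocytosis and cilia, were higher. RAB27A (-0.23), RAB18 (-0.33), RAB9A (-0.26), RAB8B (-0.54), RAB31 (-0.18), RAB33B (-0.34) and RAB6A (-0.19) were lower. A block over all 12 libraries passed 0 RAB genes. Removing the GC and length trend in addition gave 2 higher and 0 lower, where 12.1% of all genes passed. None of the 7 falls held in that fit, with RAB18 at -0.00676. In ELI against ABT RAB31 and RAB3D differed by 0.74 and -0.79 (limma adjusted p = 4.45e-06 and 4.72e-05). Against ABT as the base, ELI had 22 RAB genes higher and 13 lower, where 63% of all genes passed (33.2% higher and 29.8% lower). Without the trend that split became 12 higher and 14 lower, where 60.0% of all genes passed, and 10 of the 22 rises and 10 of the 13 falls held. Comb had 20 and 11 against ABT, where 67.2% passed (35.4% higher and 31.7% lower). Without the trend Comb had 14 and 13, where 68.1% of all genes passed, and 12 of the rises and 10 of the falls held.

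From ABT to Comb, which differ by ELI, all 7 early endosome RABs passed, 6 higher and RAB5C lower, with a median of 0.63. With the GC and length trend removed, RAB21 (-0.05), RAB22A (0.08) and RAB5C (-0.08) no longer passed, RAB21 with its sign turned. Of the 10 RABs of the endoplasmic reticulum and Golgi 6 rose and 2 fell, of the 9 secretory RABs 2 rose and 4 fell, and of the 8 recycling RABs 3 rose and 4 fell. Of all genes 67.2% passed here, 35.4% higher and 31.7% lower, and the secretory share of 66.7% lies near that. After removal of the trend, 3 of the 6 rises of the endoplasmic reticulum and Golgi, 1 of the 2 secretory and 1 of the 3 recycling rises held, and all of the falls in these 3 classes. Of all genes 68.1% then passed. RAB11A (-0.18), RAB4A (-0.24) and RAB33B turned their sign. The largest rises were those of RAB31 (1.05, SE 0.06, limma adjusted p = 6.58e-08), RAB10 (0.78, SE 0.11, limma adjusted p = 9.67e-05) and RAB8B (0.77, as given above). RAB18 rose by 0.75 (limma adjusted p = 0.000456), which ended at 0.10 with the trend removed, and RAB5A by 0.73 (limma adjusted p = 0.00116), which became 0.47 and passed. RAB1B and RAB15 fell by 0.67 each and RAB3D by 0.62 (limma adjusted p = 0.000697, 3.61e-05 and 0.000131), and these 3 held with the trend removed at -0.45, -0.46 and -0.46.

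RAB8A, the paralog of RAB8B, measured 12.1, 13.9 and 14.9 FPKM in DMSO, 11.4, 11.6 and 12.6 in ELI, 15.1, 18.7 and 16.6 in ABT, and 13.9, 11.9 and 12.4 in Comb. ABT was the highest group and overlapped none of the others. Against ABT its differences were -0.46 in ELI and -0.37 in Comb (limma adjusted p = 0.00174 and 0.00469). RAB12, which sends transferrin receptor to lysosomes, averaged 8.22 FPKM with DMSO, 9.24 with ELI, 7.28 with ABT and 9.16 with both, and stood 0.30 above ABT in Comb (limma adjusted p = 0.0154). That call was lost without ABT replicate 2 or 3 or Comb replicate 1 (up to 0.072). RAB33B, of Golgi and autophagosome traffic, averaged 2.81 FPKM with DMSO, 2.89 with ELI and 2.82 with both, and measured 2.16, 2.21 and 1.61 FPKM in ABT. Its ABT libraries were the lowest of all 12, and its difference of 0.35 in Comb (limma adjusted p = 0.0165) was lost without ABT replicate 3 (0.078) and reversed to -0.14 with the trend removed. RAB28 averaged 8.94 FPKM with DMSO and 10.6 with ELI. RAB6B and RAB7B stayed at or below 2.80 FPKM in all 12 libraries.

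Of the 44 RAB genes 2 passed between Comb and ELI. In Comb against ELI, RAB31 was higher by 0.31 (SE 0.06, limma adjusted p = 0.0066) and RAB39A lower, as given above, where 9.55% of all genes passed (3.03% higher and 6.52% lower), and 9 of the 44 had an unadjusted limma p under 0.05. The difference between the effect of ELI with ABT present and its effect alone passed for RAB31 among the 44, where 5.34% of all genes passed (1.68% higher and 3.67% lower). That difference was 0.49 (SE 0.09, limma adjusted p = 0.00551): ELI moved RAB31 by 0.55 from DMSO and by 1.05 from ABT to Comb. It passed without each library in turn, with an adjusted p of up to 0.023, and was 0.40 with the trend removed.

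Genes that load, extract or read RABs moved in both directions. In Comb against DMSO 3 of 8 tested genes of prenylation and membrane cycling rose and 2 fell, 10 of 40 exchange factors rose and 4 fell, 9 of 30 GTPase-activating proteins rose and 7 fell, and 12 of 48 effectors rose and 9 fell. The shares that passed were 62.5, 35, 53.3 and 43.8%, against 51.5% of all genes. In ELI against DMSO the counts were 2 and 0, 5 and 6, 8 and 6, and 5 and 7 in the same order, or 25, 27.5, 46.7 and 25%, against 36.1% of all genes. Once the trend was removed, the rises and falls in Comb were 3 and 1, 14 and 7, 10 and 7, and 19 and 8 in the same order. Of all genes 60.4% then passed. In ELI they were 3 and 0, 9 and 6, 8 and 7, and 7 and 8, where 47.2% of all genes passed. In ABT against DMSO, with no trend removed, none passed limma, and 0, 6, 6 and 10 had an unadjusted p under 0.05. The lists had medians in Comb of 0.24, -0.00128, -0.00149 and 0.14 against 0.02 for all genes. GDI2, which extracts RABs from membranes, averaged 113 ± 15.5 FPKM in DMSO and 154 ± 1.53 in Comb and rose by 0.44 (limma adjusted p = 0.00246). RABGGTB, the catalytic subunit of the RAB geranylgeranyl transferase, rose by 0.54, from 11.6 ± 2.09 to 17.1 ± 0.489 FPKM (limma adjusted p = 0.00399), and by 0.28 with the trend removed. Its partner RABGGTA fell by 0.27 (limma adjusted p = 0.023), a call lost without DMSO replicate 2 or 3 or Comb replicate 1 or 3 (up to 0.0886) and at -0.12 with the trend removed. PDE6D, a carrier of prenylated proteins, fell by 0.29 (limma adjusted p = 0.00757).

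Of the exchange factors, DENND5A measured 3.71, 3.99 and 4.23 FPKM in DMSO, 6.15, 6.25 and 6.19 in ELI, 3.77, 4.04 and 3.98 in ABT, and 8.36, 7.99 and 7.88 in Comb. As for RAB31, Comb exceeded ELI and ELI exceeded both other groups without overlap. DENND5A, listed also as an effector of RAB6, rose by 0.87 in Comb (SE 0.06, limma adjusted p = 3.71e-07) and stood 0.33 above ELI (limma adjusted p = 0.00402). DENND4C, which acts on RAB10, rose by 0.95, from 3.44 ± 1.08 to 7.40 ± 0.176 FPKM (limma adjusted p = 0.000819). DENND6B fell by 0.53 (limma adjusted p = 0.000161).

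TBC1D1, a GTPase-activating protein of RAB10 and its relatives, fell from 12.1 ± 0.639 FPKM in DMSO to 6.76 ± 0.151 in Comb, a difference of -0.75 (limma adjusted p = 2.48e-06). TBC1D2B and TBC1D10B fell by 0.62 and 0.58 (limma adjusted p = 6.07e-05 and 0.000201). EVI5 rose by 0.87, from 2.16 ± 0.489 to 4.72 ± 0.273 FPKM (limma adjusted p = 0.000271), and by 0.55 with the trend removed. Among effectors, RILP, which links RAB7 to dynein, rose from 1.33 ± 0.259 FPKM to 3.02 ± 0.312 in Comb, by 0.79 (limma adjusted p = 2.39e-05), and stood 0.45 above ELI (limma adjusted p = 0.00663). MLPH, the RAB27A effector melanophilin, rose by 0.79 (limma adjusted p = 5.82e-06), and MICAL1, a flavoprotein that binds RAB8 and RAB10, fell by 0.62 (limma adjusted p = 1.48e-05).

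Of the relatives left out by the rule, RAB29 averaged 12.3 FPKM in DMSO and 12.5 in Comb, and RAB38 0.903 and 1.55. RAB32 averaged 20.5 FPKM with DMSO, 20.4 with ELI alone, 22.3 with ABT alone and 29.4 with both.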

How the data were processed

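The authors deposited 1 table of FPKM values for 20036 genes by Ensembl identifier, with 1 column for each of 12 libraries, per the file headers. No source used here names the aligner, the counting tool, its use of strand, the build or the annotation. Symbols came from a name table (20011 genes matched), and coordinates, exon overlaps and GC content from GENCODE release 29 (9936 of the 9959 tested genes). The low FPKM values were whole multiples of 1 read in all 16361 genes above 0 (tolerance 1e-05, or 0.001 for 597 genes), which gave the reads per library. At that depth 1 read in a 2 kb gene is worth 0.0237 to 0.0290 FPKM.

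Groups and replicate numbers came from sample titles. The test covered genes with 1 FPKM or more in 3 libraries and used limma 3.58.1 (R 4.3.3) on log2(FPKM + 1) with 1 fit of 4 group means, and p-values were adjusted by Benjamini-Hochberg within each comparison. The script was tested on simulated data. Members and lists were chosen with earlier results of these data known. Each RAB gene was put in 1 compartment class for this report, although some, such as RAB14 and RAB31, act between compartments. The class counts depend on that choice. Members that passed were ranked by their largest difference in a comparison they passed, and the first 16 are given in every library. From each list up to 4 genes with the smallest adjusted p in Comb against DMSO are named, and a few list and marker genes are not reported here.

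Same-numbered libraries of DMSO, ELI and ABT deviated together (correlations of 0.24 to 0.88 over genes), and those of Comb did not (-0.40 to 0.16). The numbers were therefore taken to pair the libraries of DMSO, ELI and ABT, but pairing was not shown. Differently numbered libraries were not compared as a baseline. In each of these groups the first library deviated along GC content (rho -0.79, -0.70 and -0.70). The others deviated the opposite way (rho 0.19 to 0.81). Whether that shared shift alone gives the correlations was not tested. The assumed pairing comes from the correlations, not from the labels. The replicate block therefore concerns the 9 libraries without Comb. Other alternatives were another scaling, filter and pseudocount, removal of a loess trend on GC content and length (span 0.5), fits of the 6 libraries compared, and leaving out libraries.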

Additional observations from a re-analysis of the deposited data

Results flagged for a closer look

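The effect of ELI on RAB31 differed with ABT present. ELI minus DMSO was 0.55 and Comb minus ABT was 1.05, and the test of their difference, an interaction term in limma over 12 libraries, gave 0.49 on the log2(FPKM + 1) scale (SE 0.09, limma adjusted p = 0.00551). RAB31 was higher in 3 of 3 Comb libraries than in every ABT library.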

How the results depend on the processing

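Of 117 calls of RAB genes over the 7 comparisons, all kept their direction under median-of-ratios scaling, no filter, a pseudocount of 0.1, the 12-library replicate block and without the libraries numbered 1, where 3, 4, 1, 0 and 3 no longer passed. So did the 57 calls fitted with the 9-library block, where 0 ended, and the 116 fitted in the 6 libraries compared, where 9 ended. Leaving out each of the 12 libraries in turn refitted every call, and the call was kept in 1303 of these refits and ended in 101. A single call can end in more than 1 refit. Removing the GC and length trend kept 81 calls, ended 26 and reversed 10, and with the replicate block in addition it kept 84, ended 23 and reversed 10. The reversed values were the same in both fits. RAB11A became -0.18 in Comb against ABT, -0.0107 in Comb against DMSO and -0.10 in ELI against ABT. RAB33B became -0.14 and -0.12, and RAB21 -0.0456 and -0.0691, in Comb and in ELI against ABT. RAB14 (-0.24) and RAB2A (-0.0757) reversed in ELI against ABT, and RAB4A (-0.24) in Comb against ABT. The cause was not tested.

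Counts of RAB genes that passed moved as follows. ELI against DMSO, with 22, ranged from 14 (without ELI replicate 1) to 31 (without DMSO replicate 1) when 1 library was left out, and gave 31 with the 9-library replicate block and 29 with that of 12. ABT against DMSO, with 0, gave 9 with the 9-library block and 0 to 3 without 1 library (3 without DMSO replicate 2). It gave 2 higher and 0 lower with the GC trend removed and a 12-library block. Comb against ELI, with 2, gave 8 with the GC trend removed, 9 with the block in addition, 8 in the 6 libraries alone, 7 without the libraries numbered 1, and 1 to 2 without 1 library. The interaction, with 1, gave 2 with the 12-library replicate block, 3 with the GC trend removed, 4 with the block in addition, 8 without the libraries numbered 1, and 1 to 2 without 1 library. Without 1 library, Comb against DMSO, with 26, ranged from 21 to 27, Comb against ABT, with 31, from 27 to 31, and ELI against ABT, with 35, from 29 to 35, and under the other alternatives from 25 to 30, 27 to 33 and 26 to 35. With the trend removed the split in ELI against DMSO moved from 13 higher and 9 lower to 11 and 11.

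With 3 libraries a group, small differences may not pass. Depth limits members below 1 FPKM, which rest on few reads: RAB27B had 6 to 44 and RAB43 22 to 57.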
